A study of Drosophila melanogaster with 120 samples.

Results

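A group of 249 transcripts of *Drosophila melanogaster* lost signal in the abdomen after the first day of adult life while the same transcripts gained signal in the head. They were chosen by their measured change, D, which is the median log2 intensity of all arrays of days 5, 15, 30 and 50 minus the median of all arrays of day 1, taken separately for each tissue. A transcript entered the group when D was at or below -0.8 in the abdomen and at or above 0.5 in the head. The rule took 249 of the 16637 transcripts on the array, or 1.5%. They made up 10.9% of the 2281 transcripts past the abdominal limit and 16.2% of the 1540 past the head limit. The mirror image, a rise in the abdomen with a fall in the head at the same limits, held for 99 transcripts, and 734 passed both limits downwards. Log2 intensity is a log scale of array signal on which 1 unit is a 2-fold difference.

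The first days after a fly leaves the pupal case are a period of rapid change. The cuticle hardens and darkens, remnants of larval fat body that were carried into the adult are broken down, flight and body muscle finish their growth, and in females the ovary, which fills much of the abdomen, begins to load eggs with yolk. The head holds the brain, the eyes and other sense organs, together with muscle, cuticle and a fat body of its own. An array of a whole tissue reports the mixture: fewer cells of a type and less RNA per cell cannot be told apart in it. The transcripts are identified by FlyBase transcript numbers, which the deposited table does not pair with genes. The gene table used here tied 16 transcripts of the array to a single gene and another 28 to several genes, and no member was among them. For this reason none of the 249 carries a gene name or a role below, and the tissue labels could not be checked against marker genes.

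The flies were unmated females kept at 25 °C, and heads and abdomens were profiled on 120 single-dye (Cy3) arrays, 60 for each tissue. Both regimes descended from females caught in the wild and had been kept apart for 35 generations. In the selection regime mating had been delayed to 28 and later to 40 days of age to favour a long reproductive life, and control flies had been mated at 14 days. Each regime had 3 replicate populations, called 1S, 2S and 3S for selection and 1C, 2C and 3C for control. Each population was sampled on days 1, 5, 15, 30 and 50 with 2 biological replicates, so each tissue and day had 12 arrays and each combination with a regime had 6. Total RNA was amplified before labelling.

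Some head arrays stood apart from their labels. Each array was given a score that is 0 at the typical profile of later days and 1 at that of day 1, computed from 200 transcripts each way that were not members. The score put both day-1 heads of 3C with the later days, at -0.04 and -0.02. It put 3 later heads with day 1, namely day 30 of 3C replicate 1 at 0.92, day 30 of 3S replicate 2 at 1.05 and day 50 of 2C replicate 1 at 1.22. Both day-1 abdomens of 1C lay in between, at 0.54 and 0.53, as did both day-1 heads of 1C at 0.49 and 0.47. The other 111 arrays scored on the side of their label. The members, which the score did not use, lay on the same side: in the 3C heads of day 1 only 29 and 20 of the 249 lay nearer to the day-1 level, and in the 3 later heads 233, 230 and 202 did. Head results are therefore given with all arrays and, where stated, also without these 5, called the 5 discordant heads below. Leaving them out leaves 3C with no day-1 head. Other head results, such as the levels by day and the members late in the head, rest on all arrays.

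On the first day the median member stood at 12.33 in the abdomen, against 10.36 for all transcripts. It fell to 10.86 by day 5 and then lay at 10.58, 10.63 and 10.90 on days 15, 30 and 50. In the head the median member went from 11.11 on day 1 to 12.02 on day 5 and 12.17, 12.10 and 12.15 on the days after that, while all transcripts stayed between 9.86 and 9.92. Most of both changes was thus in place by day 5: the median member had made 92.8% of its D by then in the abdomen and 89.8% in the head. These levels rest on the values that chose the members and are a description.

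**Figure D1:**
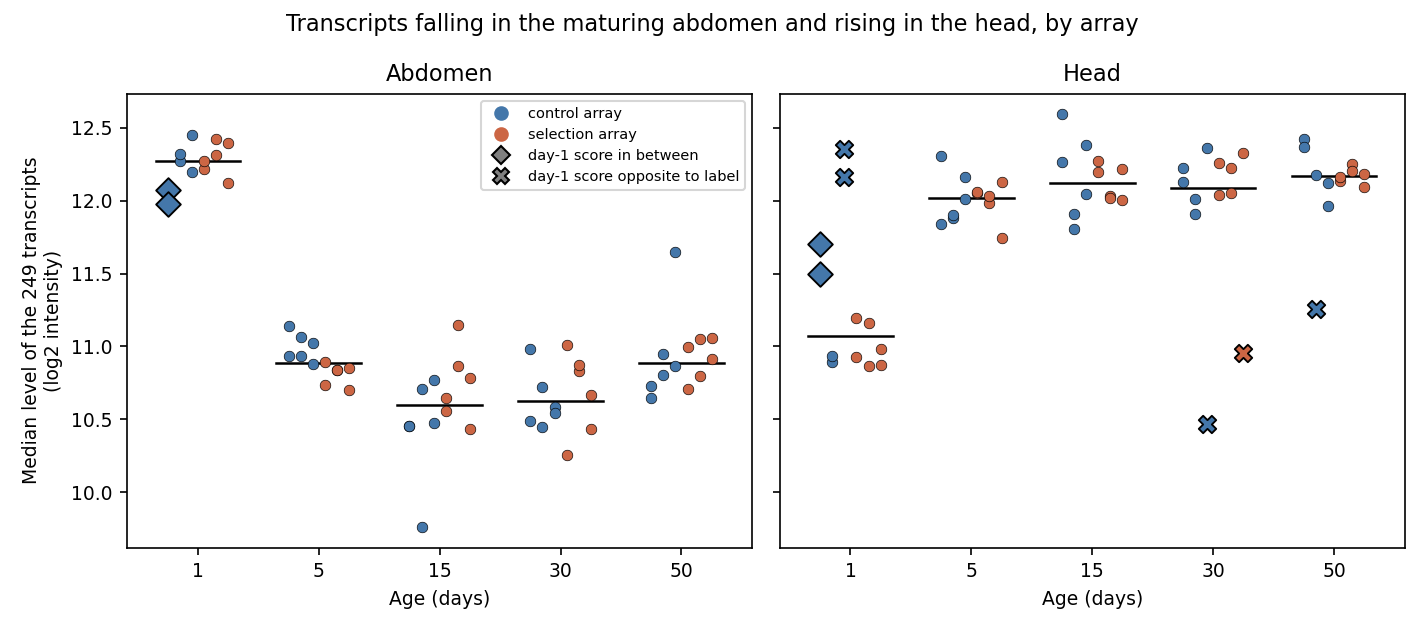
Median log2 intensity of the 249 transcripts on each array, by age in days, in abdomens (left) and heads (right). Circles are single arrays coloured by regime, diamonds and crosses mark arrays whose day-1 score was in between or opposite to the label, and black bars are medians of the 12 arrays of a day. Every abdomen of day 1 lies at or above 11.98 and every later abdomen at or below 11.65, whereas the 2 crosses among day-1 heads lie above 12 and the 3 crosses among later heads lie below 11.3.

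D ran from -5.04 to -0.81 in the abdomen with a median of -1.29, against a median of 0.02 over all transcripts. In the head it ran from 0.50 to 3.66 with a median of 0.79, against 0.01. The fall was at least 2-fold for 197 members and at least 4-fold for 31, and the rise was at least 2-fold for 73 and at least 4-fold for 10. Both changes reached 2-fold in 51 members. For 75 members every day-1 abdomen lay above all 48 later abdomens, which held for 5.18% of all transcripts. The rule used these arrays and favours such a separation, so the count is a description. In the head no transcript of the array, member or not, had all later arrays above every day-1 array (0%). The 5 discordant heads made such a separation hardly possible, and the count is not given here without them. These heads also enter the overlaps between heads given below for single members.

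**Figure D2:**
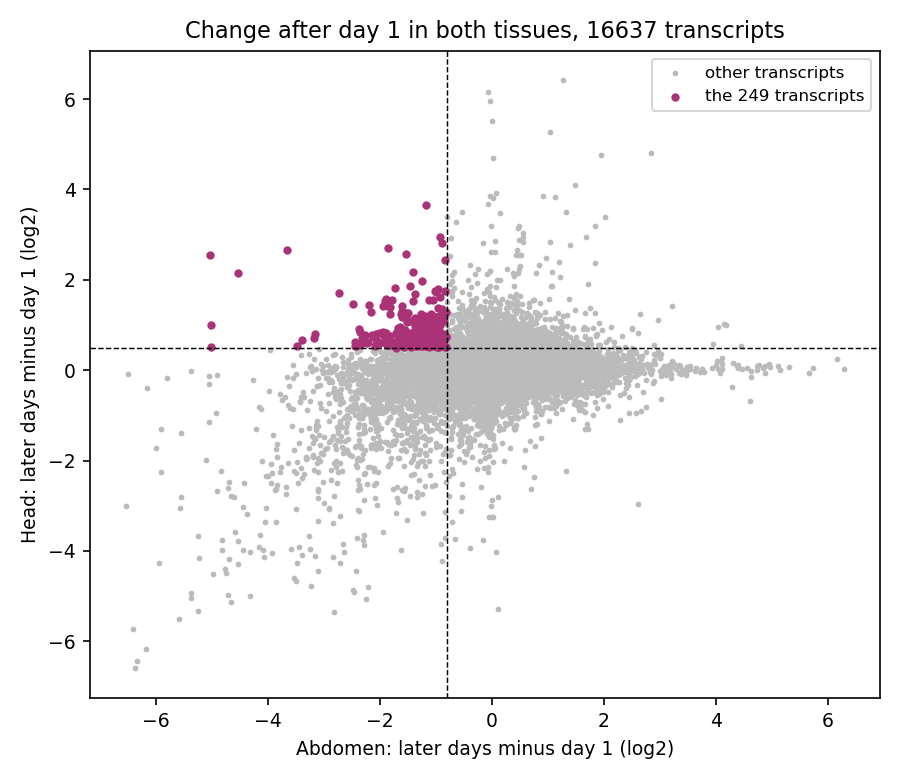
Change from day 1 to later days (D, log2) in the abdomen on the horizontal axis and in the head on the vertical axis, 1 point for each of the 16637 transcripts. The 249 transcripts (purple) occupy the corner beyond both dashed limits of the rule, from -5.04 to -0.81 in the abdomen and from 0.50 to 3.66 in the head.

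The steepest abdominal fall was that of FBtr0089324. Its abdominal arrays ran from 11.66 through a median of 13.30 to 14.13 on day 1 and from 8.00 through 8.33 to 9.46 on day 5, and its medians of 8.63, 8.15 and 8.23 on days 15, 30 and 50 stayed near the low end of the array's range. All day-1 abdomens lay above all later ones. In the head the same transcript ran from 8.78 through 10.50 to 14.13 on day 1 and from 12.45 through 13.28 to 14.52 on day 5. Its later head medians were 13.77, 12.55 and 12.61, and the day-1 and later heads overlapped widely, with a median change of -1.92 in 3C against 3.01, 3.12 and 3.00 in 1S, 2S and 3S.

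FBtr0085462 fell almost as far, with abdomens from 12.79 through 14.17 to 14.68 on day 1 and from 9.11 through 9.67 to 10.44 on day 5. Its abdominal medians went on down to 8.71 on day 50. In the head its medians rose from 11.12 on day 1 to 12.99 on day 5 and then returned through 12.22 and 11.01 to 10.54, below the start. Its day-1 and later abdomens did not overlap, and its heads did.

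The strongest head rise was that of FBtr0088191. Its heads ran from 8.38 through 9.58 to 13.66 on day 1 and from 12.28 through 13.19 to 14.14 on day 5, with a median of 13.96 on day 50. Its abdomens fell from a median of 11.74 on day 1 to 9.93 on day 15 and were back at 11.51 on day 50. The second, FBtr0071386, had head medians of 9.28 on day 1 and 12.18 on day 5, followed by 12.02, 12.09 and 12.26. Its abdominal medians of 11.63 on day 1 and 10.81 on day 5 lay closer together, and arrays of the 2 ages overlapped in both tissues.

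The typical course is shown by the 2 members whose 10 medians, centred, lie at the smallest mean absolute distance from the median member profile, 0.07 and 0.08 on the log2 scale against a median distance of 0.30. FBtr0079339 ran from 11.65 through 12.15 to 12.53 in day-1 abdomens and from 10.40 through 10.78 to 11.45 on day 5, without overlap between day 1 and any later day. In heads it ran from 10.71 through 11.39 to 12.68 on day 1 and from 11.64 through 12.19 to 12.65 on day 5. FBtr0084028 had abdominal medians of 11.13 on day 1 and 9.97 on day 5 and head medians of 10.43 and 11.19, and its groups overlapped in both tissues.

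**Figure D3:**
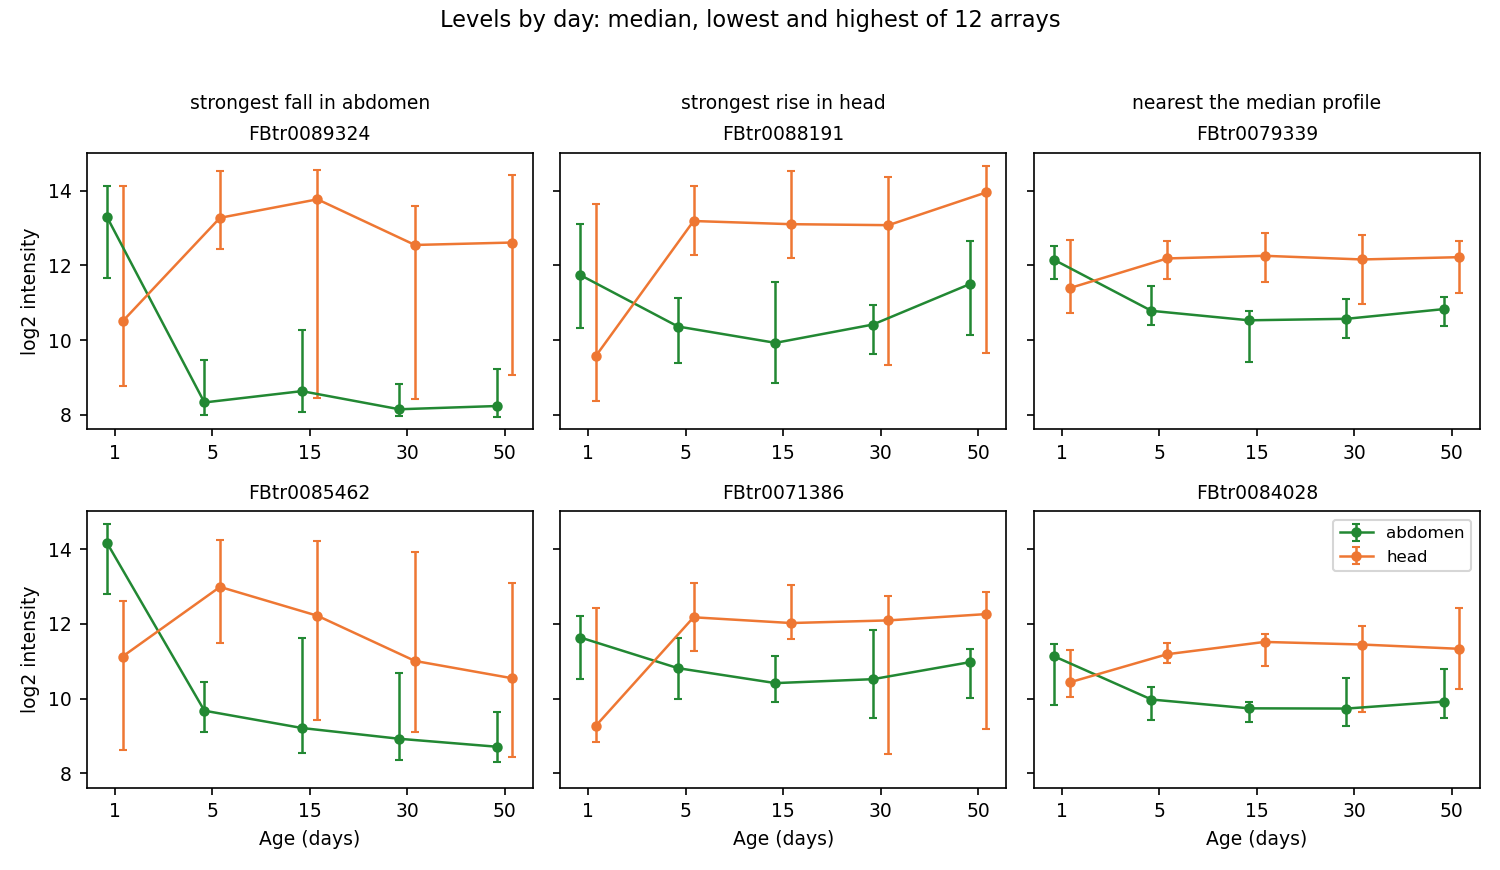
Log2 intensity by age in days of the 2 members with the strongest fall in the abdomen, the 2 with the strongest rise in the head and the 2 at the smallest mean absolute distance from the median member profile, in abdomens (green) and heads (orange). Points are medians and bars span the lowest and highest of 12 arrays. In all 6 the head median lies below the abdomen median on day 1 and above it on day 5.

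The opposite movements exchanged the rank of the tissues. On day 1 the median member was lower in the head than in the abdomen by 0.89 on the log2 scale, and on later days it was higher in the head by 1.48. Over all transcripts the difference of head minus abdomen was -0.26 and -0.24. Of the members, 205, or 82.3%, were higher in the abdomen on day 1 and higher in the head later, against 11.5% of all transcripts. Another 25 were higher in the abdomen throughout and 19 were higher in the head throughout. None went the other way. The rule favours such an exchange, and these counts are a description.

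The level over the 5 sampled days, weighted equally, was also compared between tissues. Since 4 of the 5 days are later days, this mean contains most of the change that chose the members, so the values are a description and no difference from other transcripts is read from them. In a limma fit with population as a block, requiring an adjusted p at or below 0.05 and a 2-fold difference, 137 members differed, or 55%, beside 33.6% of all transcripts. The head was higher for 121 (10.4% of all transcripts) and lower for 16 (23.2% of all transcripts). The median member was higher in the head by 0.98, and the median of all transcripts was -0.25. Other scalings moved the latter to -0.03 with quantile normalization and to 0.18 with median centring, and the members higher in the head by the same limits then numbered 169 and 165, and 127 as deposited without the 5 discordant heads. FBtr0086713 had a head level higher by 3.58. Its abdominal mean went from 13.73 ± 0.54 on day 1 to 8.73 ± 0.15 on day 5 (SD, n = 6 populations), and its head means were 13.20 ± 0.33 and 13.66 ± 0.20. FBtr0084352 was lower in the head by 3.62 although it rose there by the rule, with head means between 8.03 and 9.20 on every day.

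The fall in the abdomen was shared by all 6 populations. The median change of the members was -1.18 in 1C, -1.41 in 2C, -1.32 in 3C, -1.30 in 1S, -1.26 in 2S and -1.38 in 3S, and 244 of the 249 members fell in every one. The head was less even. The median change was 1.02 in 1S, 0.90 in 2S, 0.93 in 3S, 0.62 in 1C and 0.80 in 2C, but -0.27 in 3C, where only 49 members were higher on later days. As a result 34 members rose in the head of all 6 populations and 196 in exactly 5. Without the 5 discordant heads the median head D was 0.92. Over all transcripts the median change lay between -0.0015 in 1C and 0.10 in 2C in the abdomen. In the head it lay between -0.02 in 1S and 0.04 in 2C. The arrays of these populations chose the members, which favours 1 direction in each population, so these counts are a description.

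**Figure D4:**
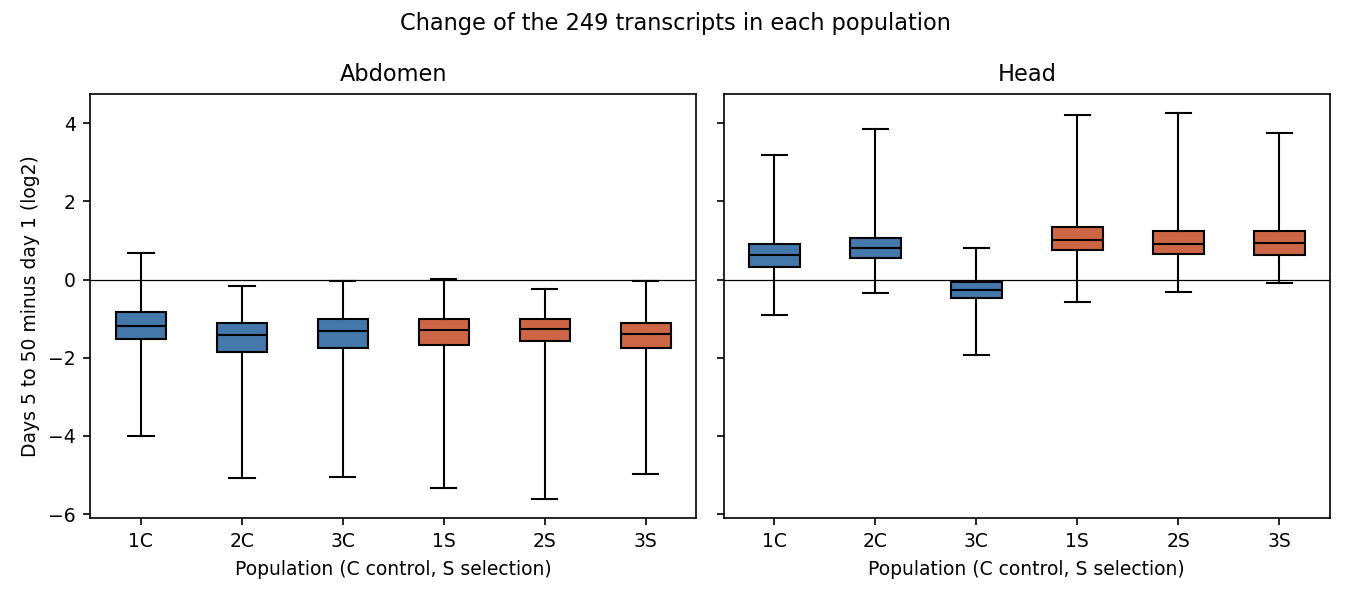
Mean of days 5 to 50 minus day 1 (log2) for the 249 transcripts in each population, in abdomens (left) and heads (right). Boxes span the first to the third quartile of the members, lines in the boxes are medians and whiskers reach the lowest and highest member. All 6 abdominal medians lie between -1.41 and -1.18, and the head median of 3C, at -0.27, is the only one below 0.

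Because the rule used all arrays, the same change was measured in arrays that had no part in the choice. On the first biological replicate alone the rule chose 251 transcripts. In the second replicate 250 of them were lower on later days in the abdomen and 247 were higher in the head, with median changes of -1.24 and 0.67 against 0.05 and 0.03 over all transcripts. By limma at an adjusted p of 0.05 the fall passed for 237 of the 251 (94.4%, against 22.8% of all transcripts) and the rise for 189 (75.3%, against 12.7%). With the replicates exchanged, 233 transcripts were chosen. The fall then passed for 232 (99.6%, against 25.3% of all transcripts) and the rise for 102 (43.8%, against 5.48%). Leaving out the control population 2C lowered the count for the rise to 113 of 265 (42.6%, against 5.98% of all transcripts). Without the selection population 1S it was 120 of 255 (47.1%, against 5.46%). Without the 5 discordant heads 327 were chosen and the rise passed for 258 (78.9%, against 18.3%). In the fit to all arrays, which includes the values that chose the members, the fall passed for 248 members (26.9% of all transcripts) and the rise for 232 (16.9%), and nothing is read from these.

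The rule was also applied without a pair of same-numbered populations, and the change was then taken over both left-out populations together. Of 224 transcripts chosen without 1C and 1S, 217 moved in both directions of the rule in that pooled change. Both limits of the rule were passed by 138. The counts were 204 and 152 of 206 for 2C and 2S, and 250 and 84 of 278 for 3C and 3S. Over all transcripts a fall in the abdomen with a rise in the head was seen in 24.7%, 18.8% and 20.4%. In 3C and 3S the median head change of the transcripts chosen elsewhere was 0.39, against 0.74 and 0.92 in the other 2 pairs. A pooled change does not show that each population of a pair moved this way. In the head of 3C alone, only 49 of the 249 members were higher on later days.

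After day 5 the abdominal fall went on in a mild form until day 15. It did not last: the median member stood at 10.86 on day 5, 10.58 on day 15, 10.63 on day 30 and 10.90 on day 50. The day-15 abdomen of 2C replicate 2 lay low, with a median member level of 9.76. From day 5 to day 15 the median member declined by a further 0.27 (fitted change -0.27, against 0.02 over all transcripts). The change was negative for 210 of the 249 members and positive for 15.7%, against 56% positive over all transcripts. In the limma fit 7 members passed, or 2.81% against 0.733%, of which 6 fell (0.613% of all transcripts) and 1 rose (0.12%). At an unadjusted p of 0.05, 83 members fell, or 33.3%, against 5.94% of all transcripts. FBtr0078848 fell by 0.82 (change -0.82 ± 0.14 SE, adjusted p = 0.0051), from 13.47 ± 0.22 on day 5 to 12.65 ± 0.33 on day 15 (SD, n = 6), in all 6 populations. Its mean had been 13.69 ± 0.39 on day 1, so most of its fall came after day 5. FBtr0078025, the single member that rose, stood at 13.54 ± 0.48 on day 1, 8.54 ± 0.19 on day 5 and 9.55 ± 0.67 on day 15 (adjusted p = 0.050). The count of 7 became 0 without 3S, 1 without 1S, 2 without 2S and 3 without either 2C or 3C, and 1 or 0 with a single biological replicate.

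In the head no member passed for day 15 against day 5, and 1 transcript of all (0.00601%) did. At an unadjusted p of 0.05 limma found 22 members higher on day 15, or 8.84%, against 2.59% of all transcripts. The median change was 0.12 and 191 members (76.7%) were positive, against 52.2% of all transcripts. Without the 5 discordant heads 3 members passed, and 3 passed without 3C. The shares of all transcripts under these settings are not given here, so these counts are not read as a result about the members.

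A minority of members reached their head level late. By day 5, 22 members had made under 50% of their head D, and 3 of these were lower on day 5 than on day 1. The medians of these 22 in the head were 9.93 on day 1, 10.21 on day 5, 10.88 on day 15, 11.08 on day 30 and 11.50 on day 50. In the abdomen the same transcripts had fallen at once, from 11.56 on day 1 to 9.67 on day 5, and lay at 9.99 on day 50. The clearest case was FBtr0082621, with head medians of 9.70, 8.90, 10.89, 11.69 and 11.68 over the 5 days. Its abdominal medians were 9.65 on day 1 and between 7.79 and 7.88 later, near the bottom of the array's range. The heads of day 5, from 8.14 to 9.83, did not overlap with those of day 15, from 10.36 to 11.67. In the limma fit this difference did not pass (adjusted p = 0.19), and the member was picked after its values were seen.

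Ageing was measured as day 50 minus day 5. The rule used the arrays of both days, pooled with the other later days, but not the difference between them. In the abdomen the median change of the members was -0.01, as it was for all transcripts. Among them 12 passed, or 4.82% against 0.914% of all transcripts, 7 of them upwards (0.451% of all transcripts) and 5 downwards (0.463%). FBtr0082339 rose by 1.62 ± 0.28 (SE, adjusted p = 0.0033). Its abdomens ran from 9.18 through 9.69 to 10.97 on day 5 and from 10.26 through 11.46 to 13.06 on day 50, so the groups overlapped, and the day-50 median was close to that of day 1, 11.36. FBtr0077583 rose by 0.87 ± 0.15 (adjusted p = 0.0046), from 8.92 ± 0.20 to 9.79 ± 0.30 (SD, n = 6). FBtr0077182 fell further, with a change of -1.28 ± 0.22 (adjusted p = 0.0028), from arrays of 10.28 through 11.32 to 11.90 on day 5 to arrays of 9.20 through 10.09 to 11.46 on day 50. It had started at a median of 13.81 on day 1. The second fall was that of FBtr0078848, with a change of -0.74 ± 0.14 (adjusted p = 0.0057). The 12 members moved one way in all 6 populations in 11 cases. None of the 12 passed under every left-out population: the count was 0 without 3S, 4 without 2S, 5 without 1S, 6 without 3C and 7 without 2C. With biological replicate 2 alone it was 1, and with replicate 1 alone 2.

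In the head 14 members passed for ageing, or 5.62% against 1.76%, 11 of them upwards (1.07% of all transcripts) and 3 downwards (0.691%). The median change was 0.09, against 0.00 over all transcripts, and 167 members (67.1%) were positive, against 48.6% of all transcripts. Of the 11 that rose, FBtr0076918 had the smallest p, with a change of 2.47 ± 0.28 (adjusted p = 4.4e-05). Its heads ran from 8.29 through 8.77 to 10.15 on day 5 and from 9.45 through 11.63 to 11.96 on day 50. FBtr0273402 rose by 2.26 ± 0.34 (adjusted p = 0.00056), from 9.30 ± 0.53 to 11.55 ± 0.50 (SD, n = 6). Both belong to the late group, whose 22 members all had a positive ageing change and included 11 of the 14 called. That group was picked for a low day 5, which the ageing contrast shares, so the overlap is a description.

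The 3 members that fell in the head with age were FBtr0087522, FBtr0084352 and FBtr0085462. FBtr0087522 changed by -0.72 ± 0.15 (adjusted p = 0.014), from heads of 11.16 through 11.63 to 12.48 on day 5 to heads of 10.42 through 11.03 to 12.03 on day 50. FBtr0085462, whose head peak on day 5 was given above, changed by -2.19 ± 0.47 (adjusted p = 0.015), with a range over the populations from -4.56 to -0.64. All 14 members moved one way in all 6 populations, and 4 of them passed under every left-out population. The count of 14 became 4 without 1S, 7 without 2S, and 8 without either 1C or 3S, and it was 3 with biological replicate 1 alone. Without the 5 discordant heads it was 34, with 31 upwards, beside 5.02% of all transcripts.

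**Figure D5:**
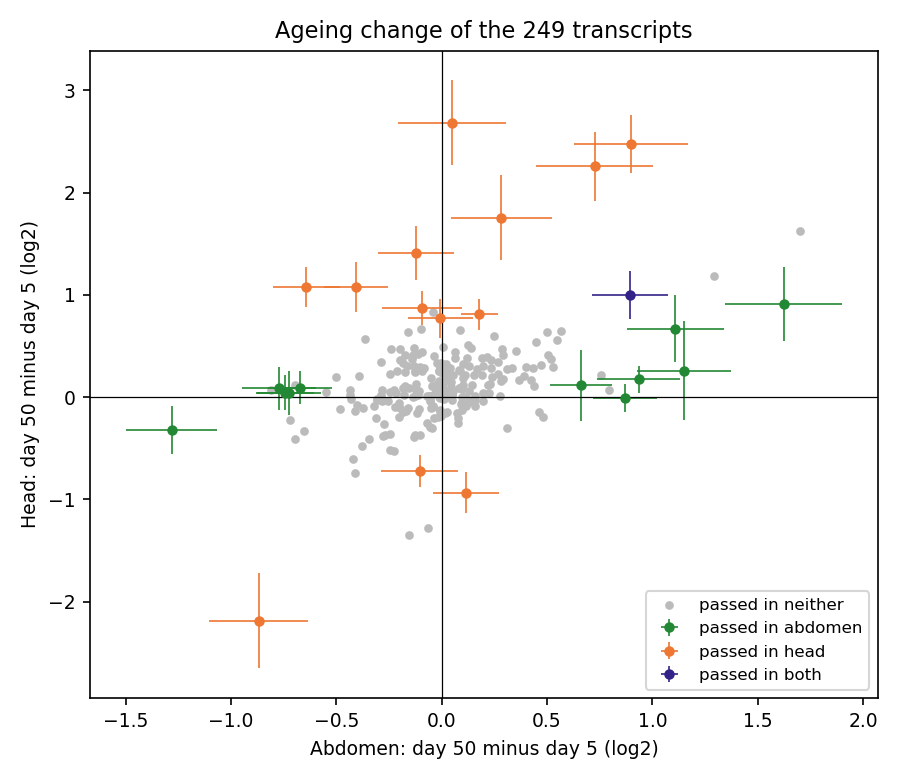
Change from day 5 to day 50 (log2) of the 249 transcripts in the abdomen (horizontal axis) and the head (vertical axis). Coloured points passed at an adjusted p of 0.05 in the abdomen (12 transcripts), the head (14 transcripts) or both (1 transcript, counted in each), with bars of 1 standard error, and grey points passed in neither. Points called in the head spread upwards to 2.68, and points called in the abdomen lie on both sides of 0.

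A single member, FBtr0100109, passed in both tissues, with changes of 0.89 ± 0.18 in the abdomen (adjusted p = 0.014) and 1.00 ± 0.24 in the head (adjusted p = 0.030). Its abdominal call was lost without 3C or any selection population, and its head call without any one population except 3C. The difference between the tissues was tested directly on head minus abdomen within each population. It passed for 10 members, or 4.02% against 1.11%. In 9 of them the head change was the higher one (0.565% of all transcripts) and in 1 the lower (0.547%). FBtr0082621 differed by 2.64 ± 0.26 (adjusted p = 0.0023): its head rose from 8.90 ± 0.37 to 11.58 ± 0.62 while its abdomen stood at 7.82 ± 0.11 and 7.86 ± 0.10 (SD, n = 6). FBtr0083624 differed by 1.53 ± 0.18 (adjusted p = 0.0027), with heads of 8.51 ± 0.22 on day 5 and 9.92 ± 0.36 on day 50 and abdomens of 9.39 ± 0.18 and 9.26 ± 0.37. FBtr0077583 was the member with the opposite sign, at -0.88 ± 0.18 (adjusted p = 0.039). Its head means were 9.89 ± 0.29 and 9.88 ± 0.18 beside the abdominal rise given above. All 10 differences had one sign in all 6 populations. The count became 4 without 1C, 2S or 3S, 16 without the 5 discordant heads, and 0 with biological replicate 1 alone, where no transcript of the array passed. For the other settings the shares of all transcripts are not given here, so the counts show only how the result depends on the arrays used.

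Selection was tested over populations, 3 against 3, on the mean of the 5 days. No member passed in either tissue, and neither did any other transcript (0%). At an unadjusted p of 0.05 limma found 6 members in the abdomen, or 2.41% against 1.35%, and 29 in the head, or 11.6% against 16.6%. The median difference of selection minus control was 0.04 in the abdomen and -0.08 in the head. The smallest abdominal p among the members belonged to FBtr0083971, at 11.80 ± 0.27 in selection and 11.01 ± 0.05 in control (SD, n = 3 populations, adjusted p = 1.00). In the head it belonged to FBtr0077863, at 11.23 ± 0.09 in selection and 11.73 ± 0.15 in control (SD, n = 3, adjusted p = 0.23). The test has few populations, and a p above the threshold does not show that levels were alike.

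Whether selection altered the change of the first days was tested as the change from day 1 to later days in selection minus that in control. In the abdomen no member passed, 0.0421% of all transcripts did, 9 members had an unadjusted p at or below 0.05 (3.61%, against 4.51%) and the median difference was -0.03. In the head no member passed either (0.024% of all transcripts). With selection and control populations of the same number paired as a block, 1 member passed in the abdomen and 4 passed in the head, all 4 with the higher change in selection. In the main fit, which has no such block, the members leaned one way in the head, with a median difference of 0.58. The difference was positive for 238 of 249 (95.6%), against 50.1% of all transcripts. At an unadjusted p of 0.05 limma found 115 higher in selection, or 46.2% against 7.77% of all transcripts. The smallest p was that of FBtr0078226, with a difference of 0.92 ± 0.22 (adjusted p = 0.15) and population changes of 1.17, 0.91 and 1.15 in selection and -0.23, 0.89 and -0.18 in control. FBtr0079310 differed by 1.25 ± 0.31 (adjusted p = 0.15), with 2.06, 1.82 and 1.97 in selection and 1.00, 1.37 and -0.27 in control. The heads that stood apart move with this result. Without the 5 discordant heads the median difference was 0.25 with 54 members at an unadjusted p of 0.05, and without the heads in between as well it was 0.10 with 7. Without 3C it was 0.26, and without 2C it was 0.78 and 77 members passed. The shares of all transcripts under the pairing and under these left-out settings are not given here. The counts under them are therefore not read as a result about the members.

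Correlations between pairs of members were also described on later days. After the mean of each group was removed from the 48 later arrays of a tissue, the median correlation between pairs of members was 0.18 in the abdomen, with 71.7% of pairs positive. Every 20th transcript of the array, taken as a comparison, gave -0.01 and 48.9%. In the head the median was 0.47 with 96.4% positive, and without the 5 discordant heads 0.14 with 67.3%. The members were chosen on these arrays for 1 direction of change in each tissue, and the comparison transcripts were not. That choice may itself favour positive correlations among members, which was not tested. The comparison therefore cannot show that they vary together for another reason. These correlations share arrays and their technical variation and are descriptions. Members need not be independent: 74 have a transcript number within 3 of another member's, as transcripts of 1 gene can, and FBtr0072963 and FBtr0072964 had a correlation of 0.98 over the 120 arrays centred within tissue.

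Correlation of single members with the median member profile ran from 0.30 to 0.92 with a median of 0.79. Outside the group, FBtr0080108 and FBtr0083538 came closest to that profile, both with a correlation of 0.86 over 120 arrays. Both fell short of the head limit, with head D of 0.47 and 0.39. The limits themselves pass through a continuum. FBtr0078968, with an abdominal D of -0.81, was just inside and FBtr0088256, whose D of -0.80 is above the limit before rounding, was just outside. At the head limit FBtr0082898 was inside at 0.50 and FBtr0075091 outside at 0.49. Limits stricter by 0.2 in both tissues would keep 130 transcripts, and limits looser by 0.2 would take 481.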

How the data were processed

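The authors deposited 1 log2 intensity for each transcript and array, made with RMA per the submitters' processing notes. RMA corrects background, normalizes arrays by quantiles and combines probes. Not given in the sources used here are its version, which arrays it normalized jointly, the genome build and the annotation release. Precision is limited by the number of arrays, which have no read depth. Array medians ran from 9.45 to 10.45.

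The members, the gene lists and the tests were chosen with earlier results of these data known. The 19 gene lists and the tissue markers named no member and were not used.

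Fits used limma 3.58.1 in R 4.3.3 on all 16637 transcripts, with an intensity trend, two-sided tests and Benjamini-Hochberg adjustment. The 2 biological replicates were averaged within population and day, and the day fits held population, day and regime by day (16 residual degrees of freedom). Regimes were compared over 6 population means, and the tissue difference in ageing over 6 differences. Fits were tested on simulated data. Scores of a day-1 array under 0.25 or a later array over 0.75 counted as opposite to the label. Tables were handled with Python 3.11.15 and pandas 2.3.3.

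Named transcripts were the extremes of D, those nearest the median profile and the limits, and for each test up to 4 each way with the smallest p among those that passed, or the 2 with the smallest p where none passed. Only some of these are printed, and the late members named were picked after their values were seen. The title of 1 array, the day-15 head of 3C used as replicate 1, gives replicate 3. The labels call the replicates biological. Alternatives were other scalings, a filter on dim transcripts, no intensity trend, left-out populations, replicates or arrays discordant with their label, and pairing by population number.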

Additional observations from a re-analysis of the deposited data

Results flagged for a closer look

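A sample was singled out when it lay far from the other 5 of its set, and 5 of 34 sets of 6 values held such a sample, where chance gives about 5% of sets. Day-15 abdomens of control had a median member level of 9.76 in 2C replicate 2, with the others from 10.45 to 10.77. Day-50 abdomens of control had 11.65 in 3C replicate 1, with the next at 10.95. Day-30 heads of control had 10.47 in 3C replicate 1, with the next at 11.91, and day-30 heads of selection had 10.96 in 3S replicate 2, with the next at 12.04. The median head change of the members was -0.27 in 3C, with the next population at 0.62. The 2 day-30 heads and the day-1 heads of 3C are those whose day-1 scores were opposite to their labels, and why they stand apart was not tested.

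The ageing change differed between head and abdomen, by a direct test in limma, for 10 members. The difference of head minus abdomen was 2.64 for FBtr0082621, 1.53 for FBtr0083624 and -0.88 for FBtr0077583.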

How the results depend on the processing

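The number of members was 227 to 290 with a population or replicate left out, 130 and 481 with limits stricter and looser by 0.2, and within 1.5 times of 249 under the other alternatives. With a population or a replicate left out, the members called numbered 0 to 14 for ageing in the abdomen, 3 to 12 for ageing in the head, 0 to 6 and 0 to 3 for day 15 against day 5 in abdomen and head, 132 to 149 for the tissue level and 0 to 13 for the tissue difference in ageing. They numbered 0 to 1 in the abdomen and 0 to 77 in the head for the regime difference in the change after day 1, and 0 in both tissues for regime. In the replicate split the ranges were 203 to 300 and 113 to 231, and exchanging the replicates gave 102 for the head. The filter on dim transcripts gave 9 for ageing in the head, 13 for day 15 in the abdomen and 6 for the tissue difference in ageing. Without the discordant heads these were 34 for ageing in the head, 3 for day 15 in the head and 16 for the tissue difference. Leaving out the arrays in between as well, chosen after seeing the data, gave 40, 4 and 16, and 13 for day 15 in the abdomen. Except where printed above, the shares of all transcripts under these alternatives are not given, so the counts show only how results depend on the processing. Causes were not tested. The 43 calls of single members for ageing, for day 15 and for the tissue difference had 589 values under these alternatives, of which 391 stayed called, 198 did not and 0 changed sign.

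With the population number as a replicate block, pairing selection and control populations, 4 members passed in the head and 1 in the abdomen for the regime difference in the change after day 1, and 0 for regime. The labels say that populations were set up in pairs, and pairing by number was used here only as an alternative. Populations of the same number did not all deviate together: correlations of their deviations were -0.03, 0.35 and 0.44 in the abdomen and 0.26, 0.06 and 0.31 in the head, so the numbers were not taken as pairs.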
